A study of Mus musculus with 30 samples.

Results

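The genes of cholesterol and fatty acid synthesis were followed in the abdominal aorta of mice infused with angiotensin II. The set held 29 genes of 14379 with a summed level, 19 of sterol synthesis and its control and 10 of fatty acid synthesis and its control. The members were listed by name, and all 29 passed the filter on low values, as did 13223 genes in all. Each of 6 groups had 5 libraries of total RNA, 30 libraries together, all from wild-type C57BL/6 mice after 28 days of treatment. In AngII+ETH, AngII+BAI and AngII+GAS the mice received angiotensin II at 500 ng/kg/min with ethoxysanguinarine, baicalin or gastrodin at 5 mg/kg per day. In AngII+VAL they received the same infusion with valsartan, a blocker of the type 1 angiotensin receptor, at 10.4 mg/kg per day. AngII mice received the infusion alone, and Control mice received saline. The labels gave no ages and did not say whether a library was 1 animal or a pool, so p-values measure the spread between these libraries.

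Cholesterol is built from acetyl-CoA through mevalonate, squalene and lanosterol, and fatty acids are built from acetyl-CoA through malonyl-CoA. Genes of the sterol branch are classically driven by SREBP-2 when membranes run short of sterol, and genes of the fatty acid branch by SREBP-1c under insulin and by carbohydrate-responsive factors. In the aorta the fat around the vessel is a strong site of fatty acid synthesis, while most cells of the wall make cholesterol at a lower rate.

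The promoters of 4 members are shown because SREBP factors work beside the CCAAT-binding factor NF-Y and the GC-box factor Sp1. Sequences are from RefSeq for build GRCm38.p6, cover the 250 bases before the RefSeq start of the gene, run 5′ to 3′ in the direction of the gene, and have the motif CCAAT, read as ATTGG from the opposite strand, in capitals. In Hmgcs1 a match to the sterol regulatory element TCACNCCAC (GTGGNGTGA on the other strand) is also in capitals, 137 bases before the start. The Hmgcs1 stretch is chr13:119690101-119690350 on the plus strand, that of Sc5d is chr9:42264301-42264550 on the minus strand, that of Mvd is chr8:122443423-122443672 on the minus strand and that of Fasn is chr11:120824548-120824797 on the minus strand.
Hmgcs1: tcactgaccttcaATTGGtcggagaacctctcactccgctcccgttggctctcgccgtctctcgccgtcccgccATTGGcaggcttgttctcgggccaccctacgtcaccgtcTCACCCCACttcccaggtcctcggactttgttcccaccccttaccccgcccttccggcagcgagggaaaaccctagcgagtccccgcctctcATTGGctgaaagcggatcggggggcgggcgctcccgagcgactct
Sc5d: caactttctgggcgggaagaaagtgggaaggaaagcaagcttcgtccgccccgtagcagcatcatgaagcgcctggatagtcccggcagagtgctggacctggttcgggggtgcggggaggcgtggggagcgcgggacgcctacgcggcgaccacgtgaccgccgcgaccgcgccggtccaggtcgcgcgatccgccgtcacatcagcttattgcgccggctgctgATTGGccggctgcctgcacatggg
Mvd: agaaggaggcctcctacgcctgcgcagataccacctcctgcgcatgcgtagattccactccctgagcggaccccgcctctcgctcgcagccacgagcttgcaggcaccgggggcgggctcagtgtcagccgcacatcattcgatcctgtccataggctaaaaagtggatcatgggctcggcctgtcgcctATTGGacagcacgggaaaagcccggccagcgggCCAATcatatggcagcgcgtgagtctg
Fasn: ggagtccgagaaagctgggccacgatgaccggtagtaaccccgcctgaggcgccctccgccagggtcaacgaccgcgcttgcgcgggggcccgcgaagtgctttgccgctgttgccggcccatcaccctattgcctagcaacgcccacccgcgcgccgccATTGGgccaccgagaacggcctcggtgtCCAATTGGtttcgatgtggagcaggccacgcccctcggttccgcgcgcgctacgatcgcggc
In Fasn a CCAAT and an ATTGG overlap by 2 letters and were counted as separate matches. These stretches lie outside the GENCODE spans given for the genes below. RefSeq and GENCODE differ in the starts of other members, and of the stretches counted next that of Cyp51 has 49 and that of Msmo1 214 of its 250 bases inside the GENCODE gene. The stretch of Thrsp has 180. The only stretches of Acaca and Acacb lie wholly inside their genes, all 250 bases. The counts below therefore include sequence inside genes, in both branches.

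A promoter was in the RefSeq table for 15 sterol and 8 fatty acid members, and a gene with several starts was counted if any of its promoters held the motif. CCAAT was found in 14 of the 15 sterol genes and 5 of the 8 fatty acid genes, against 37.5% of all 27025 genes with promoters of the same length. The GC box GGGCGG, read as CCGCCC from the opposite strand, was found in 14 of the 15 sterol genes and 3 of the 8 fatty acid genes, against 35.4% of all genes in the table. The sterol regulatory element was searched in the spelling TCACNCCAC alone, on both strands. That spelling was found in 1 of the 15 sterol genes and 0 of the 8 fatty acid genes. It was found in 1.22% of all genes in the table. Other spellings of the element were not searched. The E-box CACGTG, which reads the same on both strands, was found in 4 of the 15 sterol genes and 0 of the 8 fatty acid genes, against 6.86% of all genes in the table. A match is a description of letters and not a bound site.

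Levels are in FPKM, a length- and depth-scaled fragment number per transcript, inferred from the values because no header named the unit. Log2 differences are fitted on log2(FPKM + 1), which understates the change of genes near 0. The reads behind the values came to 69.8 to 80.8 M (megareads) per library, so 3 reads in 2 kb of transcript were worth 0.0186 to 0.0215 FPKM. The white adipocyte markers summed to 4489 to 11568 FPKM and the smooth muscle markers to 1464 to 13190 FPKM over the 30 libraries, the lowest smooth muscle sum being in AngII+BAI. The adipocyte hormone gene Adipoq stood at 192 to 528 FPKM and the brown adipocyte gene Ucp1 at 275 to 3834 FPKM, so every library held RNA of both the wall and its fat. In bulk tissue fewer cells of a type and less RNA per cell cannot be told apart. Libraries stood apart by other tissues: the neuron markers summed to 17.9 to 1236 FPKM in AngII and 19.7 to 99.0 FPKM in Control, and the skeletal muscle markers to 707 to 3825 FPKM in AngII+VAL and 12.1 to 80.7 FPKM in AngII. Th, an enzyme gene of sympathetic neurons, stood at 0.0906 to 145 FPKM in AngII and at 0 to 7.73 FPKM in Control. AngII+BAI 1 had 21.5% of its listed transcripts at 0, the most of any library. The hepatocyte markers had a mean log2 level of 4.12 in AngII+BAI 1 and at most 0.558 in any other library. Their sum reached 135 FPKM in AngII+BAI, and the part of such RNA in the values of the members was not tested. Of 8 adrenal cortex markers only Star had a listed transcript, at 0.822 to 2.71 FPKM, and Cyp11a1 was not analysed here.

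The 2 branches sat at different levels. By mean FPKM 5 fatty acid members ranked 12 to 133 of the 13223 genes and the other 5 ranked 569 to 1813, and the sterol members ranked 902 to 11160. Scd1 (chr19:44394455-44407879, minus strand), the stearoyl-CoA desaturase that makes oleate, averaged 4107 FPKM over the 30 libraries and ranked 12 of the 13223 genes. Fasn (chr11:120805846-120824547, minus strand), the fatty acid synthase, averaged 856 FPKM and ranked 40. Thrsp, a small protein of lipogenic tissues, averaged 748 FPKM and ranked 49. Acly (chr11:100476353-100528000, minus strand), which cuts cytosolic citrate into acetyl-CoA, averaged 449 FPKM and ranked 81. Me1, the malic enzyme that supplies NADPH, averaged 318 FPKM and ranked 133. The sterol members averaged between 1.55 FPKM for Hsd17b7 and 58.7 FPKM for Insig1, all below 7 of the fatty acid members. Scd1 and Scd2 are paralogs, and whether reads were shared between them was not tested.

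No member passed an adjusted p of 0.05 by limma with Benjamini-Hochberg adjustment over all 13223 genes, in any of 10 comparisons. Members are therefore described by their values, and counts at an unadjusted p under 0.05 are read against the share of all genes at that p. The 4 comparisons of a compound with AngII use the same 5 AngII libraries, which are also the libraries set against Control. Likenesses between these comparisons are therefore not given as results.

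In AngII against Control, several late enzymes of the sterol branch stood higher. Of the 19 sterol members, 15 were higher and 4 lower in AngII, with a median log2 difference of 0.31, where 66.6% of all genes were higher and the median of all genes was 0.11. None passed (0% of all genes passed), and 5 of the 19 had an unadjusted p under 0.05, all higher, where 9.51% of all genes were higher at that p. The 5 were Cyp51, Sc5d, Mvd, Msmo1 and Sqle. Without AngII 2, 41 genes passed by limma, no member among them, and 0 to 5 passed without any other single library. Of the 10 fatty acid members 6 were higher and 4 lower, with a median log2 difference of 0.22 and 0 at that p by limma.

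Cyp51 (chr5:4081145-4104746, minus strand in mm10), the demethylase that starts the conversion of lanosterol, had the smallest p of the sterol members. It stood at 14.96, 14.4, 14.0, 9.04 and 24.4 FPKM in AngII libraries 1 to 5 and at 8.59, 6.81, 6.34, 9.98 and 7.78 FPKM in Control libraries 1 to 5. All AngII libraries but number 4 lay above every Control library, and number 4 lay below the highest Control value. The means were 15.3 ± 5.57 FPKM in AngII and 7.90 ± 1.45 FPKM in Control (SD, n = 5 each), a log2 difference of 0.83 (SE 0.20) with an unadjusted p of 0.000300 and an adjusted p of 0.163 by limma. With libraries weighted by their quality the adjusted p by limma was 0.0470, and over 42 alternatives it ranged from 0.0470 to 0.998. Sqle (chr15:59315077-59331192, plus strand), the squalene epoxidase that is a second rate-controlling step, stood at 20.6, 11.1, 9.40, 9.33 and 26.7 FPKM in AngII and at 9.22, 4.98, 5.13, 8.51 and 8.77 FPKM in Control. Every AngII library exceeded every Control library, which held for 1 of the 29 members and for 3.55% of all genes. The log2 difference of Sqle was 0.90 (SE 0.40), with an adjusted p of 0.388 by limma.

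Sc5d (chr9:42251595-42264256, minus strand), which sets the ring double bond that gives 7-dehydrocholesterol, stood at 12.5, 22.4, 11.8, 11.9 and 24.7 FPKM in AngII and at 9.10, 6.81, 9.32, 12.6 and 11.3 FPKM in Control. Libraries 2 and 5 of AngII were above all other libraries of the study, and the groups overlapped. Its log2 difference was 0.66 (SE 0.20), with an adjusted p of 0.225 by limma. Mvd (chr8:122433601-122443422, minus strand), the decarboxylase at the end of the mevalonate steps, averaged 5.88 ± 3.12 FPKM in AngII and 2.68 ± 0.447 FPKM in Control, a log2 difference of 0.79 (SE 0.26). Msmo1, the C4-methyl sterol oxidase, averaged 15.8 ± 4.98 FPKM in AngII and 10.6 ± 2.23 FPKM in Control, a log2 difference of 0.52 (SE 0.20).

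**Figure D1:**
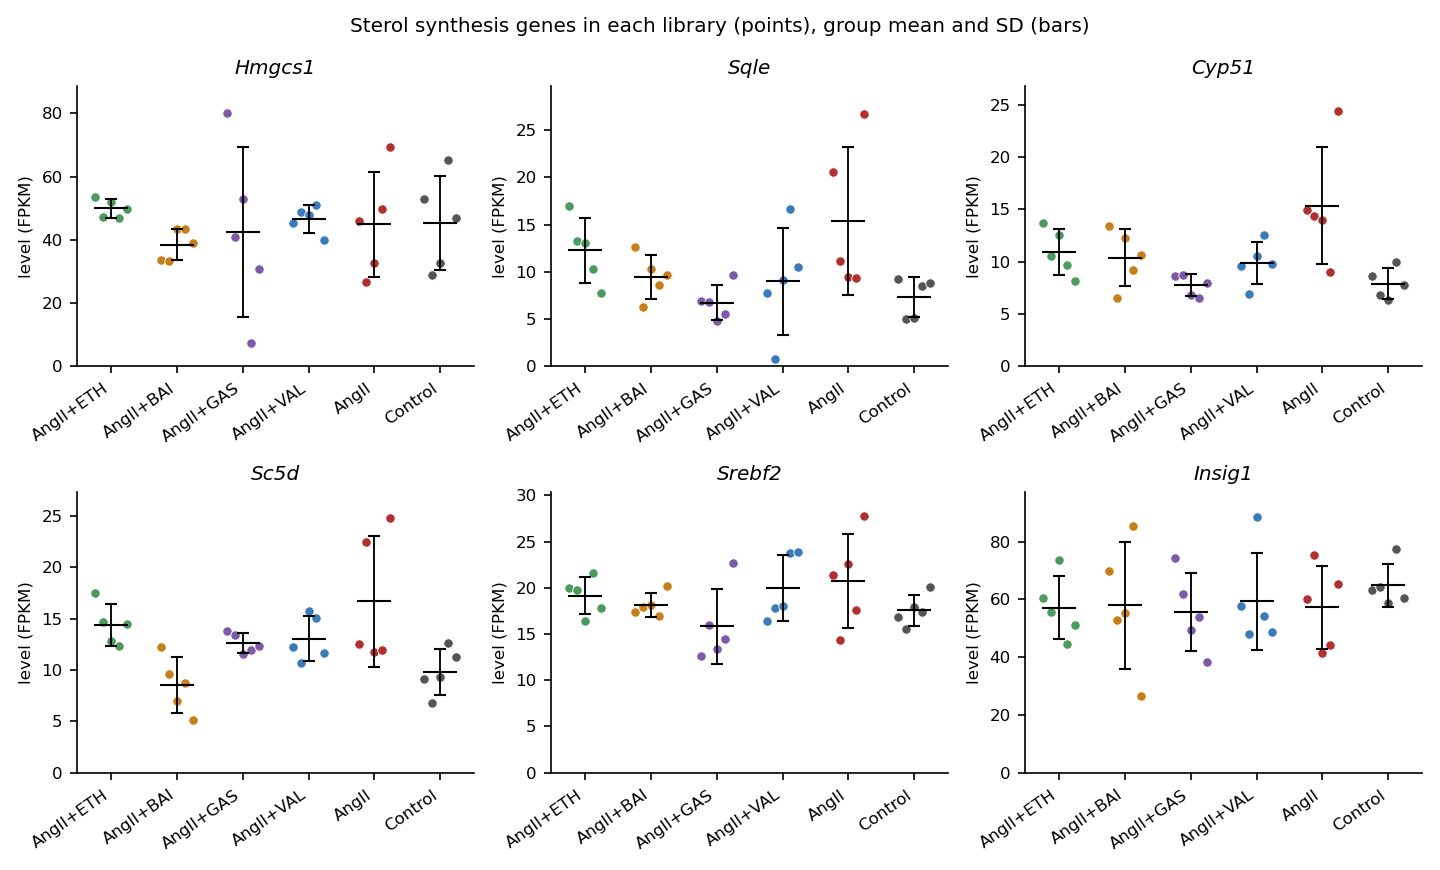
FPKM of 6 sterol members in each library (points) by group, with the group mean (line) and SD (bars); AngII 5 is the highest library of Sqle, Cyp51, Sc5d and Srebf2, and Hmgcs1 and Insig1 show no such rank.

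The entry enzyme and the regulators showed smaller differences. Hmgcs1 (chr13:119690379-119708260, plus strand), the cytosolic HMG-CoA synthase, stood at 45.9, 26.7, 32.8, 49.7 and 69.5 FPKM in AngII and at 52.8, 28.8, 32.7, 65.2 and 46.8 FPKM in Control. The groups covered nearly the same range, and the log2 difference was -0.03 (SE 0.36). Srebf2 (chr15:82147181-82205379, plus strand), which encodes SREBP-2, stood at 21.4, 14.3, 22.6, 17.6 and 27.8 FPKM in AngII and at 16.9, 15.5, 17.9, 17.4 and 20.1 FPKM in Control. AngII 5 was highest and AngII 2 lowest of these 10 libraries, and the log2 difference was 0.20 (SE 0.15). Insig1 (chr5:28071363-28078662, plus strand), which holds the SREBP complex in the endoplasmic reticulum, stood at 60.2, 75.4, 41.4, 44.2 and 65.3 FPKM in AngII and at 63.3, 64.2, 58.9, 77.5 and 60.5 FPKM in Control. AngII 3 and 4 were lowest, the groups overlapped, and the log2 difference was -0.21 (SE 0.24).

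The higher sterol values in AngII rested on 2 libraries. The mean log2 level of the 19 sterol members was 4.15, 3.68, 3.44, 3.52 and 4.38 in AngII libraries 1 to 5, and 3.80, 3.51, 3.30, 3.74 and 3.45 in Control libraries 1 to 5. AngII 5 and AngII 1 were the highest of the 30 libraries, and the other 3 AngII libraries lay within the Control range. The group difference was 0.27 with all libraries, 0.19 without AngII 1, 0.13 without AngII 5 and -0.02 without both, a choice made after the data were seen. Without both, 9 sterol members were higher and 10 lower in AngII, and 2 had an unadjusted p under 0.05, Cyp51 and Sc5d.

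Markers of nerve were also highest in AngII 1 and 5. The mean log2 level of 15 neuron markers was 5.40 in AngII 1 and 5.81 in AngII 5, the highest of the study, and 3.77 in AngII 4, whose sterol level was not high. In other groups AngII+ETH 1 had a neuron level of 4.92 with a sterol level of 3.95, and AngII+BAI 5 had 3.43 with 3.31. All 15 neuron markers were higher in AngII than in Control, where 66.6% of all genes were higher, with a median log2 difference of 2.28. At an unadjusted p under 0.05 by limma 13 were higher, where 9.51% of all genes were. The mean neuron level was 0.71 in AngII 2 and 0.93 in AngII 3, within the Control range of 0.63 to 2.33. The Schwann cell markers summed to 124 to 422 FPKM in AngII and 46.1 to 121 FPKM in Control, and the 11 tested were all higher. The skeletal muscle markers summed to 12.1 to 80.7 FPKM in AngII and 24.4 to 4393 FPKM in Control, and the 11 tested were all lower. With neuron and skeletal muscle levels as terms in the fit, the median log2 difference of the sterol members was 0.14 and that of the fatty acid members 0.40. That of all genes was 0.08. The part of nerve in the sterol values was not tested beyond this fit.

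**Figure D2:**
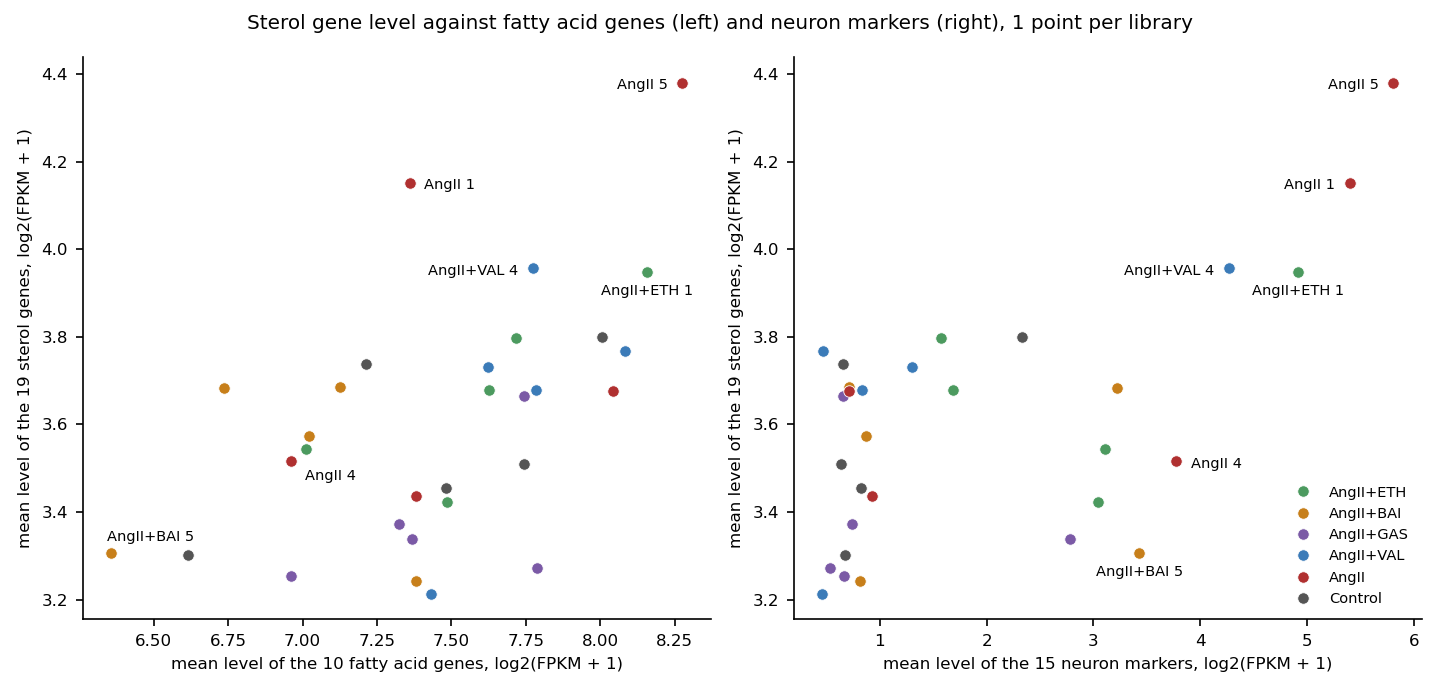
Each point is 1 library: left, the mean log2(FPKM + 1) of the 19 sterol members against that of the 10 fatty acid members; right, the sterol mean against the mean of the neuron markers. AngII 5 and AngII 1 have the highest sterol means, at 4.38 and 4.15, and the highest neuron means.

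Quantile normalization moved the median of all genes in AngII against Control to -0.02, against 0.11 without it, and the median of the sterol members to 0.19. It moved the median of all genes to 0.01 in AngII+GAS against AngII, against -0.17 without it, and to 0.00 in AngII+VAL against AngII, against -0.12 without it. Sterol medians below are therefore given beside the median of all genes.

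The group means of the sterol members follow in the order of the pathway. AngII had the highest mean of the 6 groups for 13 of the 19 sterol members, and AngII+GAS the lowest for 9. The same counts were not made over all genes, so these are not read as particular to the members. Of all genes 66.6% were higher in AngII than in Control, and 73.7% were lower in AngII+GAS than in AngII. Acat2, a thiolase that joins acetyl-CoA units, averaged 49.5 ± 10.3 FPKM in AngII+ETH, 40.2 ± 11.7 FPKM in AngII+BAI, 43.9 ± 13.7 FPKM in AngII+GAS, 49.98 ± 8.88 FPKM in AngII+VAL, 51.8 ± 18.4 FPKM in AngII and 45.9 ± 9.84 FPKM in Control (SD, n = 5 here and below). Hmgcs1 averaged 49.9 ± 2.88 FPKM in AngII+ETH, 38.5 ± 4.996 FPKM in AngII+BAI, 42.4 ± 26.9 FPKM in AngII+GAS, 46.6 ± 4.31 FPKM in AngII+VAL, 44.9 ± 16.6 FPKM in AngII and 45.3 ± 14.9 FPKM in Control. Mvk, the mevalonate kinase, averaged 6.12 ± 2.79 FPKM in AngII+ETH, 4.90 ± 2.87 FPKM in AngII+BAI, 5.15 ± 1.98 FPKM in AngII+GAS, 5.44 ± 2.29 FPKM in AngII+VAL, 5.69 ± 3.06 FPKM in AngII and 5.16 ± 1.54 FPKM in Control. Pmvk, the next kinase, averaged 32.1 ± 7.08 FPKM in AngII+ETH, 30.2 ± 18.3 FPKM in AngII+BAI, 22.2 ± 6.33 FPKM in AngII+GAS, 26.6 ± 5.63 FPKM in AngII+VAL, 35.2 ± 17.4 FPKM in AngII and 27.2 ± 9.09 FPKM in Control. None of these first steps had an unadjusted p under 0.05 in the 5 main comparisons. Mvd averaged 3.54 ± 1.48 FPKM in AngII+ETH, 3.75 ± 1.504 FPKM in AngII+BAI, 2.13 ± 0.348 FPKM in AngII+GAS, 2.97 ± 0.742 FPKM in AngII+VAL, 5.88 ± 3.12 FPKM in AngII and 2.68 ± 0.447 FPKM in Control. Idi1, the isopentenyl diphosphate isomerase, averaged 14.3 ± 3.81 FPKM in AngII+ETH, 10.4 ± 2.51 FPKM in AngII+BAI, 9.89 ± 2.51 FPKM in AngII+GAS, 12.5 ± 2.32 FPKM in AngII+VAL, 13.9 ± 5.68 FPKM in AngII and 10.6 ± 2.51 FPKM in Control. These steps make the isoprene units. Fdps, which makes farnesyl diphosphate, averaged 18.1 ± 11.9 FPKM in AngII+ETH, 15.2 ± 10.7 FPKM in AngII+BAI, 7.41 ± 5.16 FPKM in AngII+GAS, 19.1 ± 7.50 FPKM in AngII+VAL, 24.6 ± 23.5 FPKM in AngII and 13.8 ± 7.63 FPKM in Control. Fdft1, the squalene synthase, averaged 25.2 ± 13.6 FPKM in AngII+ETH, 21.9 ± 7.69 FPKM in AngII+BAI, 22.9 ± 6.88 FPKM in AngII+GAS, 29.2 ± 9.75 FPKM in AngII+VAL, 25.3 ± 8.19 FPKM in AngII and 28.6 ± 7.72 FPKM in Control. The spread of Fdps was wide, with a within-group SD of 1.05 on the log2 scale against a median of 0.38 for the sterol members.

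The later steps and the regulators follow. Sqle averaged 12.3 ± 3.46 FPKM in AngII+ETH, 9.49 ± 2.32 FPKM in AngII+BAI, 6.74 ± 1.87 FPKM in AngII+GAS, 8.997 ± 5.69 FPKM in AngII+VAL, 15.4 ± 7.84 FPKM in AngII and 7.32 ± 2.09 FPKM in Control. Lss, which closes squalene epoxide to lanosterol, averaged 6.000 ± 1.501 FPKM in AngII+ETH, 3.66 ± 1.45 FPKM in AngII+BAI, 4.36 ± 0.956 FPKM in AngII+GAS, 5.69 ± 0.799 FPKM in AngII+VAL, 6.21 ± 2.49 FPKM in AngII and 5.92 ± 1.68 FPKM in Control. Cyp51 averaged 10.9 ± 2.21 FPKM in AngII+ETH, 10.4 ± 2.71 FPKM in AngII+BAI, 7.76 ± 1.02 FPKM in AngII+GAS, 9.88 ± 2.03 FPKM in AngII+VAL, 15.3 ± 5.57 FPKM in AngII and 7.90 ± 1.45 FPKM in Control. AngII had the highest mean of all these, and the lowest was in AngII+GAS for Sqle and Cyp51 and in AngII+BAI for Lss. Msmo1 averaged 15.05 ± 3.63 FPKM in AngII+ETH, 14.8 ± 3.12 FPKM in AngII+BAI, 11.5 ± 2.22 FPKM in AngII+GAS, 15.1 ± 5.11 FPKM in AngII+VAL, 15.8 ± 4.98 FPKM in AngII and 10.6 ± 2.23 FPKM in Control. Nsdhl, which acts on the C4 carbons of the sterol ring, averaged 21.4 ± 4.55 FPKM in AngII+ETH, 15.5 ± 3.73 FPKM in AngII+BAI, 17.8 ± 2.96 FPKM in AngII+GAS, 19.8 ± 3.43 FPKM in AngII+VAL, 22.8 ± 9.70 FPKM in AngII and 16.6 ± 4.06 FPKM in Control. Hsd17b7 averaged 0.908 ± 0.542 FPKM in AngII+ETH, 1.63 ± 0.749 FPKM in AngII+BAI, 1.30 ± 1.23 FPKM in AngII+GAS, 1.08 ± 0.307 FPKM in AngII+VAL, 2.48 ± 1.67 FPKM in AngII and 1.89 ± 0.431 FPKM in Control. These act in turn on the C4 carbons. Sc5d averaged 14.4 ± 2.003 FPKM in AngII+ETH, 8.53 ± 2.68 FPKM in AngII+BAI, 12.6 ± 0.958 FPKM in AngII+GAS, 13.1 ± 2.20 FPKM in AngII+VAL, 16.7 ± 6.38 FPKM in AngII and 9.83 ± 2.23 FPKM in Control. Dhcr7, the last reductase of the branch, averaged 1.196 ± 1.92 FPKM in AngII+ETH, 2.16 ± 2.22 FPKM in AngII+BAI, 2.67 ± 2.09 FPKM in AngII+GAS, 3.22 ± 2.46 FPKM in AngII+VAL, 2.45 ± 3.47 FPKM in AngII and 3.15 ± 2.40 FPKM in Control. Dhcr7 was listed at 0 in 7 of the 30 libraries, in every group but Control, so its means mix detected and undetected libraries. Stard4, a carrier of sterol between membranes, averaged 3.11 ± 0.651 FPKM in AngII+ETH, 3.32 ± 1.71 FPKM in AngII+BAI, 2.23 ± 0.232 FPKM in AngII+GAS, 3.01 ± 0.491 FPKM in AngII+VAL, 4.15 ± 1.53 FPKM in AngII and 2.74 ± 0.534 FPKM in Control. Srebf2 averaged 19.1 ± 2.01 FPKM in AngII+ETH, 18.1 ± 1.26 FPKM in AngII+BAI, 15.8 ± 4.04 FPKM in AngII+GAS, 19.99 ± 3.56 FPKM in AngII+VAL, 20.7 ± 5.12 FPKM in AngII and 17.6 ± 1.68 FPKM in Control. Insig1 averaged 57.2 ± 11.01 FPKM in AngII+ETH, 58.0 ± 22.0 FPKM in AngII+BAI, 55.6 ± 13.5 FPKM in AngII+GAS, 59.4 ± 16.7 FPKM in AngII+VAL, 57.3 ± 14.4 FPKM in AngII and 64.9 ± 7.36 FPKM in Control. Of these last genes Insig1 had its highest mean in Control, and Stard4 and Srebf2 had theirs in AngII.

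In AngII+ETH against AngII the sterol members lay near the median of all genes. Of the 19 sterol members 15 were lower, where 69% of all genes were lower, and their median log2 difference was -0.08 beside -0.09 for all genes. None of the members passed (0% of all genes passed by limma), and 3 had an unadjusted p under 0.05, all lower, where 2.97% of all genes were lower at that p. Hsd17b7, the 3-keto sterol reductase of the branch, had the smallest p and stood at 1.23, 0.653, 0.908, 1.58 and 0.164 FPKM in AngII+ETH and at 3.50, 0.718, 1.39, 1.97 and 4.85 FPKM in AngII. AngII+ETH 5 was the lowest library of the study and AngII 5 the highest, with overlap between the groups. Its log2 difference was -0.78 (SE 0.30), with an adjusted p of 0.994 by limma. Cyp51 stood at 13.7, 10.5, 12.5, 9.64 and 8.18 FPKM in AngII+ETH, with library 5 alone below the AngII range, a log2 difference of -0.41 (SE 0.20). Mvd differed by -0.53 (SE 0.26). The other enzymes gave smaller values, such as Sqle at 17.0, 13.2, 13.1, 10.3 and 7.73 FPKM in AngII+ETH and a log2 difference of -0.22 (SE 0.40), which was 0.24 without AngII 1 and 5. Srebf2 stood at 20.01, 19.7, 16.4, 21.6 and 17.9 FPKM in AngII+ETH. Hmgcs1 stood at 53.6, 47.3, 52.1, 47.0 and 49.8 FPKM in AngII+ETH, its narrowest spread in the 6 groups. Insig1 stood at 60.6, 55.6, 73.8, 44.5 and 51.3 FPKM in AngII+ETH. All of these overlapped the AngII libraries. The neuron markers summed to 54.1 to 665 FPKM in AngII+ETH and 17.9 to 1236 FPKM in AngII, and 14 of 15 were lower. Without AngII 1 and 5 the sterol median was 0.12 beside -0.06 for all genes, so the sign of the sterol median turned.

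In AngII+BAI against AngII both branches stood lower, and the fatty acid branch by more. Of the 19 sterol members 18 were lower, where 51.3% of all genes were lower, with a median log2 difference of -0.32 beside -0.01 for all genes. Of the 10 fatty acid members 9 were lower, with a median of -0.73. Acaca was among the 9 at -1.08, but stood at 0.19 with Acaca-202 counted, a transcript not listed for AngII. No member passed, where 0.333% of all genes passed (2 higher and 42 lower), and 4 sterol and 4 fatty acid members had an unadjusted p under 0.05, all lower, where 9.29% of all genes were lower at that p. The 44 calls came to 0 without AngII 5 or without AngII+BAI 3 and to 184 without AngII+BAI 2. AngII+BAI 3 and 5 had the lowest mean log2 levels of smooth muscle markers in the study, 6.75 and 7.73. They also had the highest of macrophage markers, 6.64 and 6.00. Without both, the log2 difference of Thrsp went from -0.73 to 0.01. Over 42 alternatives the sterol median ranged from -0.45 to -0.02 and the fatty acid median from -0.94 to -0.37.

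Sc5d had the smallest p of the sterol members and stood at 12.2, 9.63, 7.01, 8.76 and 5.08 FPKM in AngII+BAI and at 12.5, 22.4, 11.8, 11.9 and 24.7 FPKM in AngII. AngII+BAI 1 alone reached into the AngII range, and AngII+BAI 5 was the lowest library of the study. The means were 8.53 ± 2.68 FPKM in AngII+BAI and 16.7 ± 6.38 FPKM in AngII (SD, n = 5 each), and the log2 difference was -0.87 (SE 0.20) with an adjusted p of 0.0511 by limma. The adjusted p by limma was under 0.05 in 7 of 42 alternatives and ranged from 0.0305 to 0.660. Lss, the lanosterol synthase, averaged 3.66 ± 1.45 FPKM in AngII+BAI and 6.21 ± 2.49 FPKM in AngII, a log2 difference of -0.64 (SE 0.22). Cyp51 stood at 13.4, 6.48, 12.2, 9.17 and 10.6 FPKM in AngII+BAI, a log2 difference of -0.49 (SE 0.20). Nsdhl differed by -0.48 (SE 0.22). Sqle stood at 12.6, 6.28, 10.3, 8.55 and 9.71 FPKM in AngII+BAI. Hmgcs1 stood at 33.5, 33.3, 43.4, 43.4 and 38.8 FPKM in AngII+BAI. Both of these overlapped AngII. Srebf2 stood at 17.4, 17.96, 18.1, 17.0 and 20.2 FPKM in AngII+BAI. Insig1 stood at 69.9, 52.7, 55.4, 85.5 and 26.4 FPKM in AngII+BAI, and its library 5 was the lowest of the study. Without AngII 1 and 5 the sterol median came to -0.02 beside 0.02 for all genes, with 8 members higher and 11 lower.

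The fatty acid members carried the larger difference in AngII+BAI. Srebf1 (chr11:60199089-60222581, minus strand), whose SREBP-1c product drives the branch, stood at 24.1, 22.0, 35.5, 31.5 and 27.4 FPKM in AngII+BAI and at 43.1, 59.6, 42.8, 31.9 and 62.3 FPKM in AngII. The groups overlapped through AngII+BAI 3 alone, which lay above AngII 4. The means were 28.1 ± 5.47 FPKM in AngII+BAI and 48.0 ± 12.7 FPKM in AngII (SD, n = 5 each), and the log2 difference was -0.73 (SE 0.18) with an adjusted p of 0.0602 by limma. The adjusted p by limma was under 0.05 in 5 of 42 alternatives and ranged from 0.0323 to 0.632. Acly stood at 373, 275, 180.0, 357 and 115 FPKM in AngII+BAI and at 526, 742, 505, 183 and 1104 FPKM in AngII. AngII+BAI 5 was the lowest library of the study and AngII 5 the highest. The groups overlapped, as AngII 4 lay below AngII+BAI 1, 2 and 4 and close to AngII+BAI 3. The log2 difference of Acly was -1.14 (SE 0.45). Fasn stood at 617, 663, 375, 770.0 and 234 FPKM in AngII+BAI and at 935, 1148, 714, 444 and 1067 FPKM in AngII, a log2 difference of -0.74 (SE 0.35). Me1 averaged 199 ± 99.99 FPKM in AngII+BAI and 421 ± 309 FPKM in AngII, a log2 difference of -0.92 (SE 0.43). Without AngII 1 and 5 the median of the fatty acid members was -0.55, with 2 higher and 8 lower.

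Of the 10 fatty acid members Scd1 was the 1 that stood higher in AngII+BAI, though its log2 difference was -0.11 after quantile normalization. Acaca was also higher, at 0.19, with Acaca-202 counted. Scd1 stood at 3032, 3637, 4494, 4559.5 and 1918 FPKM in AngII+BAI and at 2889, 3961, 2731, 2462 and 3487 FPKM in AngII, with the lowest value in AngII+BAI 5 and the highest in AngII+BAI 4. The log2 difference was 0.14 (SE 0.27). Scd2, the second desaturase, stood at 52.2, 9.85, 11.4, 4.45 and 13.7 FPKM in AngII+BAI and at 109, 16.5, 8.65, 9.50 and 36.7 FPKM in AngII, so that single libraries reached several times the median of their group. In this comparison, where 51.3% of all genes were lower, the smooth muscle markers summed to 1464 to 12087 FPKM in AngII+BAI and 6751 to 8485 FPKM in AngII, and 7 of 7 were lower. The white adipocyte markers summed to 5877 to 9533 FPKM in AngII+BAI and 6569 to 10879 FPKM in AngII, and 11 of 13 were lower, with a median log2 difference of -0.36. The neuron markers summed to 61.5 to 221 FPKM in AngII+BAI and 17.9 to 1236 FPKM in AngII, and 15 of 15 were lower. With neuron and skeletal muscle levels as terms the median of the sterol members was -0.28 and that of the fatty acid members -0.92. That of all genes was -0.01. The skeletal muscle markers summed to 40.7 to 3268 FPKM in AngII+BAI and 12.1 to 80.7 FPKM in AngII, and 11 of 11 were higher. The part of these tissues in the values was not tested beyond such terms, and with the Adipoq level as a term the median of the sterol members was -0.30 and that of the fatty acid members -0.73. The median of all genes was again -0.01. Adipoq itself differed by -0.06 (SE 0.23) in this comparison. A term for it could therefore move the medians little and could not weigh the part of fat.

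**Figure D3:**
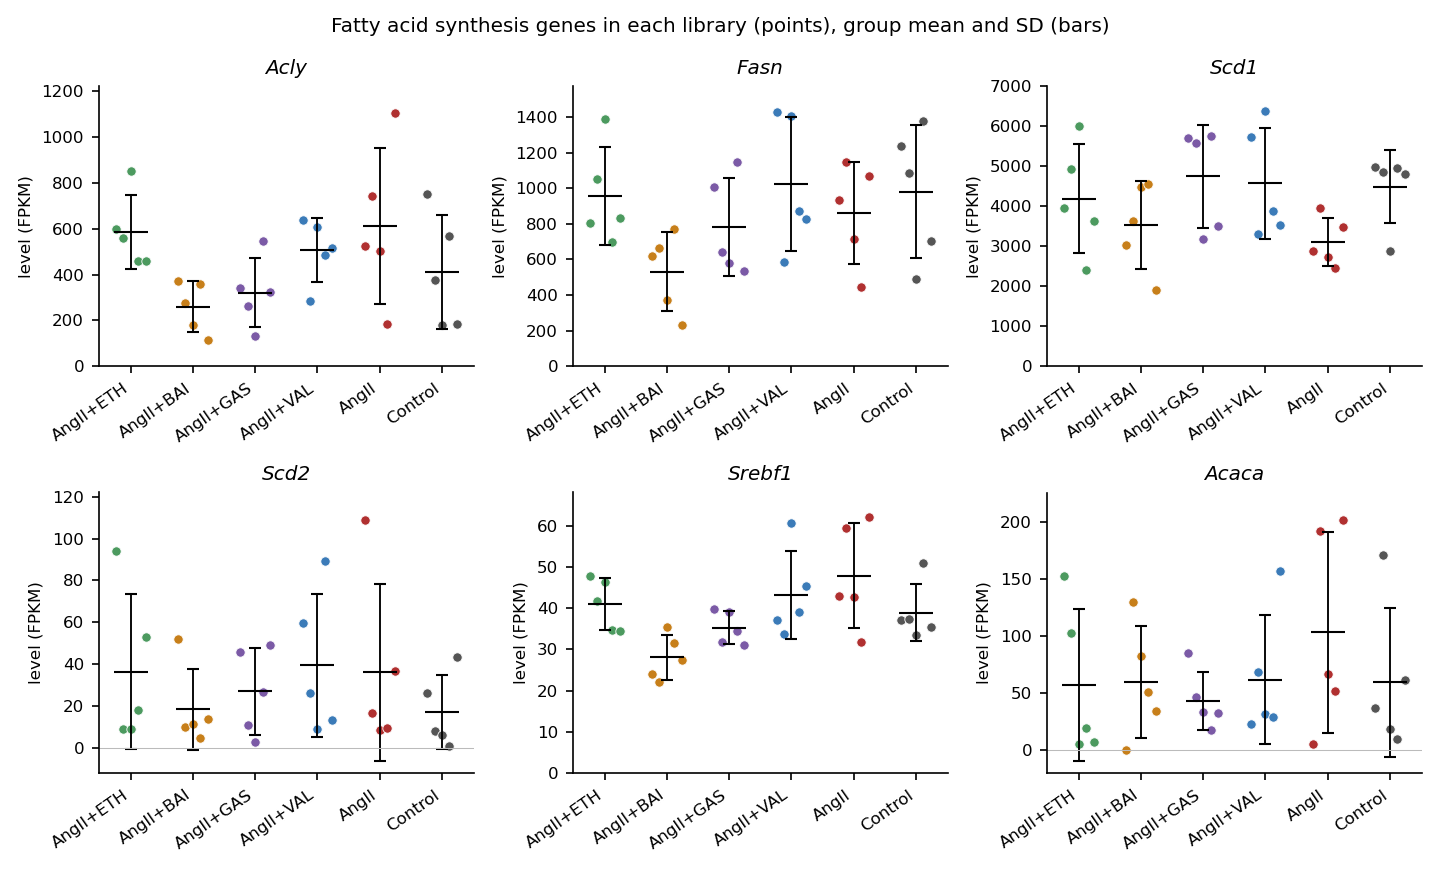
FPKM of 6 fatty acid members in each library (points) by group, with the group mean (line) and SD (bars); AngII+BAI has the lowest mean for Srebf1, Acly and Fasn, and Acaca and Scd2 scatter widely within every group.

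In AngII+GAS against AngII the sterol branch stood lower. Of the 19 sterol members 18 were lower, where 73.7% of all genes were lower, with a median log2 difference of -0.39 beside -0.17 for all genes. No member passed, where 0.0151% of all genes passed, and 6 sterol members had an unadjusted p under 0.05, all lower, where 12.4% of all genes were lower at that p. Without AngII 2, 61 genes passed by limma, no member among them, and 0 to 5 passed without any other single library. Cyp51 stood at 8.65, 8.76, 6.83, 6.56 and 7.99 FPKM in AngII+GAS, and every AngII library exceeded every one of these. The means were 7.76 ± 1.02 FPKM in AngII+GAS and 15.3 ± 5.57 FPKM in AngII (SD, n = 5 each), and the log2 difference was -0.84 (SE 0.20) with an adjusted p of 0.167 by limma. The groups of Stard4 also did not overlap, so that 2 of the 29 members did not, against 2.31% of all genes. Stard4 differed by -0.63 (SE 0.21). Mvd averaged 2.13 ± 0.348 FPKM in AngII+GAS and 5.88 ± 3.12 FPKM in AngII, a log2 difference of -1.02 (SE 0.26). With libraries weighted by quality, Cyp51 and Mvd had adjusted p of 0.0414 and 0.0426 by limma, and over the 42 alternatives Cyp51 ranged from 0.0414 to 0.815 and Mvd from 0.0426 to 0.815. Sqle stood at 6.91, 6.81, 4.76, 5.56 and 9.68 FPKM in AngII+GAS, a log2 difference of -0.99 (SE 0.40). Srebf2 stood at 12.7, 15.98, 13.4, 14.4 and 22.7 FPKM in AngII+GAS, with AngII+GAS 5 above the rest, a log2 difference of -0.36 (SE 0.15). Fdps differed by -1.36 (SE 0.64). Insig1, on the other hand, stood at 74.5, 61.9, 49.5, 53.8 and 38.4 FPKM in AngII+GAS, over the range of AngII. Without AngII 1 and 5 the sterol median was -0.19 beside -0.15 for all genes, with 6 members higher and 13 lower.

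Single libraries again stood out in AngII+GAS. Hmgcs1 stood at 80.0, 40.8, 53.0, 7.25 and 30.8 FPKM in AngII+GAS, which held both the highest and the lowest library of the study. Its log2 difference was -0.34 (SE 0.36) and was 0.17 without AngII+GAS 4. Of the fatty acid members 3 were higher and 7 lower in AngII+GAS, where 73.7% of all genes were lower, with a median of -0.29. Srebf1 stood at 39.8, 31.8, 39.2, 34.5 and 31.1 FPKM in AngII+GAS, a log2 difference of -0.40 (SE 0.18) with an adjusted p of 0.312 by limma. All but AngII 4 of the AngII libraries lay above every AngII+GAS library. Scd1 stood at 5711, 5573, 3185, 5755 and 3518 FPKM in AngII+GAS, a log2 difference of 0.59 (SE 0.27) with an unadjusted p of 0.0391 by limma, where 1.23% of all genes were higher at an unadjusted p under 0.05. Acly stood at 341, 262, 130.2, 548 and 322 FPKM in AngII+GAS, and AngII+GAS 3 had 223 FPKM with Acly-201 counted, a transcript listed for AngII+GAS alone. Fasn stood at 1009, 645, 577, 1149 and 536 FPKM in AngII+GAS. Both of these overlapped AngII. The neuron markers summed to 34.8 to 140 FPKM in AngII+GAS and 17.9 to 1236 FPKM in AngII, and 15 of 15 were lower. The Schwann cell markers summed to 51.2 to 149 FPKM in AngII+GAS and 124 to 422 FPKM in AngII, and 9 of 11 were lower. With neuron and skeletal muscle levels as terms the sterol median was -0.23 beside -0.13 for all genes.

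In AngII+VAL against AngII the medians of both branches lay near 0. Of the 19 sterol members 13 were lower and 6 higher, where 69.4% of all genes were lower, with a median log2 difference of -0.08 beside -0.12 for all genes. The sign of that median turned to 0.03 after quantile normalization and to 0.14 without AngII 1 and 5. The medians of all genes were then 0.00 and -0.09. No member passed (0% of all genes passed by limma), and 3 had an unadjusted p under 0.05, all lower, where 9.02% of all genes were lower at that p. Cyp51 stood at 9.59, 6.94, 10.6, 12.6 and 9.73 FPKM in AngII+VAL, a log2 difference of -0.55 (SE 0.20) with an adjusted p of 0.310 by limma. Mvd differed by -0.69 (SE 0.26). Sqle stood at 7.80, 0.810, 9.15, 16.7 and 10.6 FPKM in AngII+VAL, where library 2 was the lowest of the study, a log2 difference of -0.91 (SE 0.40). Hmgcs1 stood at 45.4, 48.8, 47.8, 51.2 and 39.8 FPKM in AngII+VAL. Srebf2 stood at 16.5, 17.8, 18.1, 23.8 and 23.9 FPKM in AngII+VAL. Insig1 stood at 57.9, 47.9, 88.5, 54.1 and 48.6 FPKM in AngII+VAL. These overlapped AngII, and Insig1 had its highest library of the study in AngII+VAL 3. Of the fatty acid members 5 were higher and 5 lower in AngII+VAL, with a median of 0.10. Scd1 stood at 5739.6, 3303, 6391, 3889 and 3535 FPKM in AngII+VAL, a log2 difference of 0.53 (SE 0.27) with an adjusted p of 0.488 by limma. All 11 tested skeletal muscle markers were higher in AngII+VAL, with a median log2 difference of 4.86, and the kidney markers summed to 73.2 to 105 FPKM in AngII+VAL and 0.288 to 33.5 FPKM in AngII. The part of this other tissue in the values was not tested beyond the fit with neuron and skeletal muscle terms, in which the sterol median was -0.05 and the fatty acid median -0.14. In that fit the median of all genes was -0.10.

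**Figure D4:**
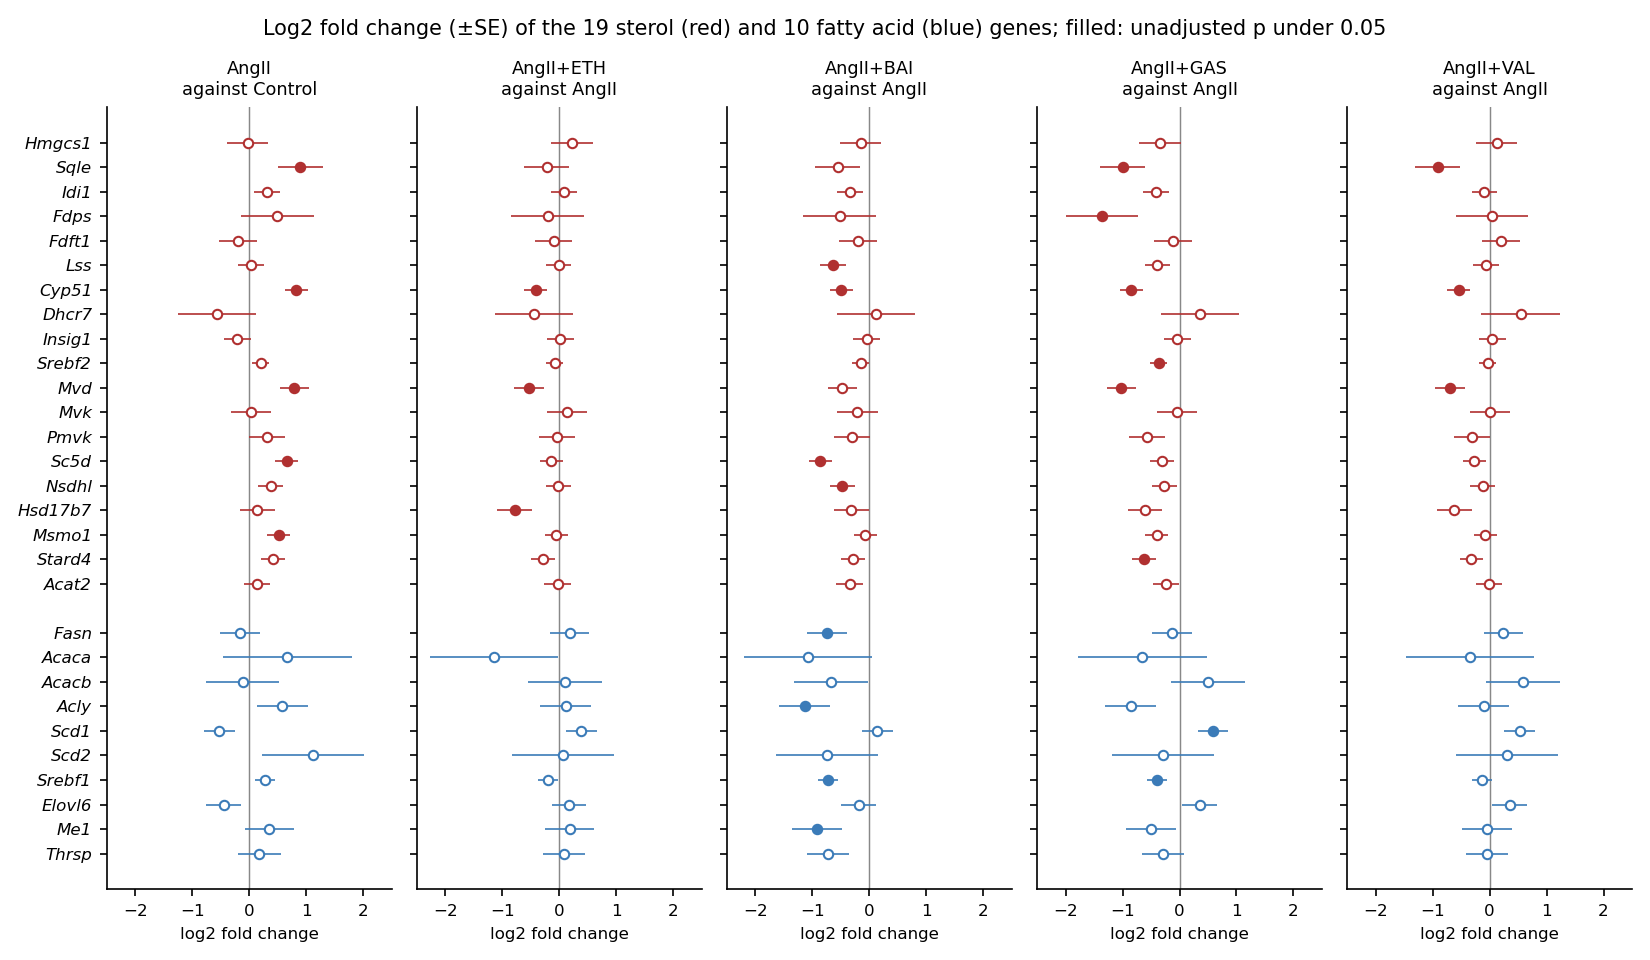
Fitted log2 difference of each of the 29 members (bars, standard error) in the 5 main comparisons, sterol members in red and fatty acid members in blue, with filled points for an unadjusted p under 0.05. The sterol median was 0.31 in AngII against Control, beside 0.11 for all genes. Against AngII it was -0.08 in AngII+ETH, -0.32 in AngII+BAI, -0.39 in AngII+GAS and -0.08 in AngII+VAL. The medians of all genes there were -0.09, -0.01, -0.17 and -0.12. All 5 comparisons share the AngII libraries, so likenesses between panels are not results.

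The fatty acid members differed in direction in AngII against Control. Scd1 had the smallest p and stood at 2889, 3961, 2731, 2462 and 3487 FPKM in AngII and at 4981, 4862, 2881, 4947 and 4805 FPKM in Control. Control 3 lay far below the other Control libraries and so the groups overlapped. The log2 difference was -0.53 (SE 0.27), with an adjusted p of 0.477 by limma. Acly stood at 526, 742, 505, 183 and 1104 FPKM in AngII and at 751, 376, 179, 569 and 183 FPKM in Control, a log2 difference of 0.58 (SE 0.45). AngII 4 was close to Control 3 and 5 at the low end, and AngII 2 to Control 1 higher up. Fasn stood at 935, 1148, 714, 444 and 1067 FPKM in AngII and at 1239, 1088, 489, 1381 and 702 FPKM in Control, a log2 difference of -0.16 (SE 0.35). Srebf1 stood at 43.1, 59.6, 42.8, 31.9 and 62.3 FPKM in AngII and at 37.3, 37.4, 33.6, 51.0 and 35.4 FPKM in Control, where library 4 was well above the rest, and the log2 difference was 0.27 (SE 0.18). Scd2 stood at 109, 16.5, 8.65, 9.50 and 36.7 FPKM in AngII and at 26.3, 8.20, 5.89, 0.956 and 43.5 FPKM in Control, so its mean followed 1 or 2 libraries.

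The values of these genes in AngII+ETH and AngII+VAL follow. Acly stood at 601, 558, 849.7, 458 and 457 FPKM in AngII+ETH and at 639.6, 284, 608, 485 and 516 FPKM in AngII+VAL. Fasn stood at 804, 1053, 1389.7, 698 and 833 FPKM in AngII+ETH and at 1426, 585, 1406, 872 and 827 FPKM in AngII+VAL. Srebf1 stood at 47.9, 41.7, 46.4, 34.8 and 34.6 FPKM in AngII+ETH and at 37.1, 33.7, 60.9, 39.2 and 45.5 FPKM in AngII+VAL. All of these overlapped the AngII libraries, and none had an unadjusted p under 0.05 against AngII. Scd2 stood at 93.9, 8.76, 8.74, 18.1 and 52.7 FPKM in AngII+ETH, at 45.7, 10.9, 2.51, 26.4 and 49.3 FPKM in AngII+GAS and at 59.7, 26.0, 9.02, 89.2 and 13.4 FPKM in AngII+VAL, with the same wide scatter in each group. Scd1 stood at 3965, 4942, 6021, 2401 and 3645 FPKM in AngII+ETH, a log2 difference of 0.39 (SE 0.27) against AngII with an adjusted p of 0.994 by limma, the smallest p of the fatty acid members there. Of the fatty acid members 8 were higher and 2 lower in AngII+ETH, with a median log2 difference of 0.11 and a difference in mean log2 level of -0.0052. Of all genes 69% were lower there, with a median of -0.09.

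The group means of the fatty acid members follow. AngII+BAI had the lowest mean of the 6 groups for 7 of the 10, a count that was not made over all genes. Acly averaged 585 ± 161 FPKM in AngII+ETH, 260.1 ± 112 FPKM in AngII+BAI, 320.5 ± 151 FPKM in AngII+GAS, 506 ± 139.8 FPKM in AngII+VAL, 612 ± 339.9 FPKM in AngII and 412 ± 249 FPKM in Control. Acaca, the acetyl-CoA carboxylase that makes malonyl-CoA for synthesis, averaged 57.2 ± 66.7 FPKM in AngII+ETH, 59.1 ± 49.1 FPKM in AngII+BAI, 42.8 ± 25.7 FPKM in AngII+GAS, 61.6 ± 56.3 FPKM in AngII+VAL, 103 ± 88.3 FPKM in AngII and 59.3 ± 65.5 FPKM in Control. Acacb, its mitochondrial relative, averaged 60.8 ± 40.5 FPKM in AngII+ETH, 34.9 ± 28.5 FPKM in AngII+BAI, 70.2 ± 39.3 FPKM in AngII+GAS, 73.7 ± 39.8 FPKM in AngII+VAL, 48.4 ± 22.2 FPKM in AngII and 58.9 ± 36.7 FPKM in Control. Both of these varied widely within groups. Fasn averaged 955 ± 275 FPKM in AngII+ETH, 532 ± 221 FPKM in AngII+BAI, 783 ± 277 FPKM in AngII+GAS, 1023 ± 375 FPKM in AngII+VAL, 862 ± 285 FPKM in AngII and 980.0 ± 373 FPKM in Control. Elovl6, which lengthens palmitate, averaged 85.9 ± 29.8 FPKM in AngII+ETH, 69.3 ± 29.8 FPKM in AngII+BAI, 96.1 ± 27.6 FPKM in AngII+GAS, 97.4 ± 37.5 FPKM in AngII+VAL, 73.3 ± 12.5 FPKM in AngII and 104 ± 35.6 FPKM in Control. Acaca had the widest spread of the members, a within-group SD of 1.87 on the log2 scale, and Acacb had 1.07. Scd1 averaged 4195 ± 1366 FPKM in AngII+ETH, 3528 ± 1101 FPKM in AngII+BAI, 4748 ± 1282 FPKM in AngII+GAS, 4571 ± 1399 FPKM in AngII+VAL, 3106 ± 608 FPKM in AngII and 4495 ± 905 FPKM in Control. Scd2 averaged 36.4 ± 36.9 FPKM in AngII+ETH, 18.3 ± 19.2 FPKM in AngII+BAI, 27.0 ± 20.7 FPKM in AngII+GAS, 39.5 ± 34.2 FPKM in AngII+VAL, 36.0 ± 42.2 FPKM in AngII and 17.0 ± 17.7 FPKM in Control. Scd1 had its lowest mean in AngII, and Scd2 in Control. Me1 averaged 396 ± 119.5 FPKM in AngII+ETH, 199 ± 99.99 FPKM in AngII+BAI, 246 ± 71.1 FPKM in AngII+GAS, 339.6 ± 97.2 FPKM in AngII+VAL, 421 ± 309 FPKM in AngII and 306 ± 205 FPKM in Control. Thrsp averaged 868 ± 243 FPKM in AngII+ETH, 605 ± 453 FPKM in AngII+BAI, 659.8 ± 147 FPKM in AngII+GAS, 780.1 ± 149 FPKM in AngII+VAL, 832 ± 268 FPKM in AngII and 741 ± 276 FPKM in Control. Srebf1 averaged 41.1 ± 6.26 FPKM in AngII+ETH, 28.1 ± 5.47 FPKM in AngII+BAI, 35.3 ± 4.04 FPKM in AngII+GAS, 43.3 ± 10.7 FPKM in AngII+VAL, 48.0 ± 12.7 FPKM in AngII and 38.9 ± 6.95 FPKM in Control. The AngII+BAI mean was the lowest of the 6 for Me1, Thrsp and Srebf1.

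The values of Acaca and Srebf1 also rested on how reads were divided between transcripts. The sum for Acaca holds a single transcript, Acaca-201, which stood at 0 in AngII+BAI 1 while its group's other libraries had 33.7 to 129 FPKM. Acaca-202 was listed for AngII+BAI and AngII+VAL alone and stood at 97.2 FPKM in AngII+BAI 1 and at 0.0834 to 1.01 FPKM in the other 9 libraries. With it counted the log2 difference of Acaca in AngII+BAI against AngII was 0.19, and without it -1.08. Srebf1-201 and Srebf1-203 held most of the Srebf1 value. In AngII+ETH 2 Srebf1-201 had 30.3 FPKM and Srebf1-203 had 4.22 FPKM, and in AngII+GAS 1 they had 32.5 and 1.43 FPKM. In the other 28 libraries Srebf1-203 was the higher, at 17.2 to 47.9 FPKM, with Srebf1-201 at 1.56 to 7.23 FPKM. The total of Srebf1 was not unusual in either library.

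**Figure D5:**
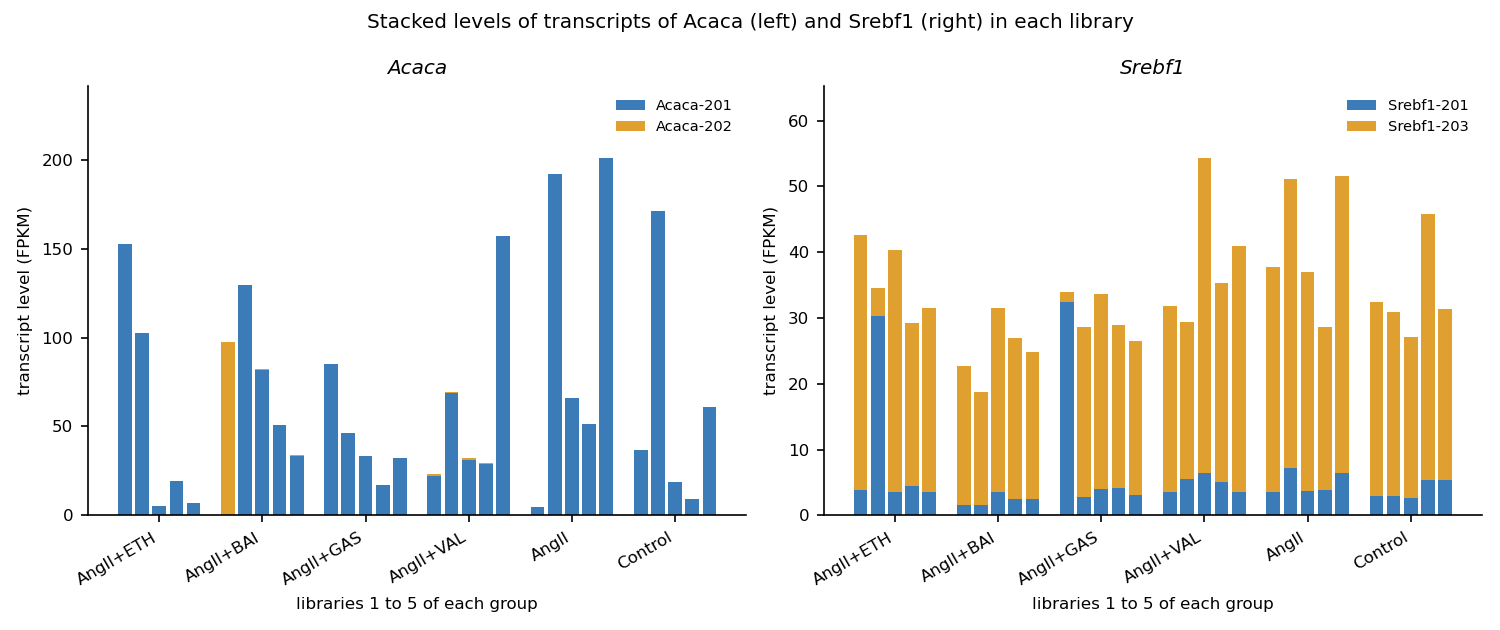
Stacked FPKM of Acaca-201 and Acaca-202 and of Srebf1-201 and Srebf1-203 in each library by group. Acaca-202 is drawn at 0 where it was not listed; AngII+BAI 1 has 97.2 FPKM of Acaca-202, and AngII+ETH 2 and AngII+GAS 1 have Srebf1-201 above Srebf1-203.

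The levels of the branches were also set against each other. The mean log2 level of the sterol members was 3.68 ± 0.21 in AngII+ETH, 3.50 ± 0.21 in AngII+BAI, 3.38 ± 0.17 in AngII+GAS, 3.67 ± 0.28 in AngII+VAL, 3.83 ± 0.41 in AngII and 3.56 ± 0.21 in Control (SD, n = 5). That of the fatty acid members was 7.60 ± 0.41 in AngII+ETH, 6.92 ± 0.39 in AngII+BAI, 7.44 ± 0.34 in AngII+GAS, 7.74 ± 0.24 in AngII+VAL, 7.60 ± 0.54 in AngII and 7.41 ± 0.53 in Control. AngII+BAI was lowest for the fatty acid branch and AngII+GAS for the sterol branch, and the libraries of the groups overlapped for both branches in every comparison. The sterol level minus the fatty acid level was -3.92 ± 0.28 in AngII+ETH, -3.43 ± 0.44 in AngII+BAI, -4.06 ± 0.29 in AngII+GAS, -4.07 ± 0.21 in AngII+VAL, -3.77 ± 0.45 in AngII and -3.85 ± 0.43 in Control. Without AngII 1 and 5 the difference from AngII in the sterol level was -0.05 in AngII+BAI and -0.16 in AngII+GAS, and that in the fatty acid level was -0.54 in AngII+BAI.

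Within groups the members varied together in part. Over deviations from the group means in the 30 libraries, the median Pearson correlation was 0.31 for the 171 pairs of sterol members, 0.23 for the 45 pairs of fatty acid members and 0.21 for the 190 mixed pairs. The closest pairs were Acly and Me1 at 0.91, Cyp51 and Mvd at 0.88 and Fasn and Acly at 0.87. The lowest were Stard4 with Thrsp and Insig1 with Srebf2, both at -0.44. These points share libraries and scaling, and the values are descriptive. AngII 5 was the highest library of the study for 13 sterol members and for Acaca, Acly, Srebf1 and Me1. How often it was the highest over all genes was not counted. The median within-group SD was 0.38 on the log2 scale for the sterol members, 0.66 for the fatty acid members and 0.39 for all genes, and Srebf2 had the smallest of the members, 0.23.

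Each member was also set against Adipoq over the same 30 deviations, with p-values adjusted over a family of 58 relations. Of the 29 relations with Adipoq 0 passed an adjusted p of 0.05 by Pearson's r and 1 by Spearman's rho in permutation tests with 100000 shuffles. Hmgcs1 and Adipoq had r = 0.50 (permutation p = 0.112, adjusted p = 0.762) and rho = 0.71 (permutation p = 0.00039, adjusted p = 0.0226), and r was 0.55 without the 2 libraries farthest in Adipoq. Acat2 and Adipoq had r = 0.52 (permutation p = 0.0128, adjusted p = 0.372).

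The compound groups were also set against Control. In AngII+BAI 1.44% of all genes passed, and no member did. There Lss, Srebf1, Fasn and Elovl6 had unadjusted p under 0.05 with log2 differences of -0.60, -0.46, -0.91 and -0.63, and Msmo1 had 0.45, where 19% of all genes reached that p. In AngII+ETH, where 0% passed by limma, Sc5d had a log2 difference of 0.52 (SE 0.20) and Hsd17b7 of -0.64 (SE 0.30), 2 of the 4 sterol members at an unadjusted p under 0.05, where 5.18% of all genes reached it. In AngII+GAS, where 0.00756% of all genes passed, 0 members had an unadjusted p under 0.05 by limma, as 3.7% of all genes did. In AngII+VAL, where 0% passed, 1 member had an unadjusted p under 0.05, as 3.84% of all genes did, Msmo1, with a log2 difference of 0.44 (SE 0.20). In the 5 infused groups together, where 0.0454% of all genes passed, 3 members had an unadjusted p under 0.05 by limma, where 6.43% of all genes did. They were Msmo1 with a log2 difference of 0.40 (SE 0.16), Cyp51 with 0.37 (SE 0.15) and Sc5d with 0.34 (SE 0.16).

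Other genes of the pathways, from lists chosen with earlier results known, gave 0 passing genes in all 10 comparisons by limma. In AngII against Control 13 of 17 other sterol genes were higher, where 66.6% of all genes were higher, and 4 had an unadjusted p under 0.05, 3 of them higher, where 9.51% of all genes were higher at that p. Of 16 genes of sterol export, LXR signalling and storage 15 were higher in AngII than in Control, beside the same 66.6% of all genes, the smallest p being those of Abcg4, a sterol transporter, at a log2 difference of 0.58 (SE 0.20) and Ch25h, which makes 25-hydroxycholesterol, at 0.56 (SE 0.34). Of 19 other fatty acid synthesis genes 12 were higher and 7 lower, the smallest p being those of Oxsm, of mitochondrial fatty acid synthesis, at -0.99 (SE 0.47) and the elongase Elovl7 at 0.48 (SE 0.23). Of 16 glycerolipid assembly genes 8 were higher and 8 lower, the smallest p being those of the acyltransferase Mogat2 at 0.50 (SE 0.19) and of Acsl4, which activates long polyunsaturated fatty acids, at 1.10 (SE 0.49). In AngII+BAI against AngII 13 of the 19 other fatty acid genes were lower, 6 of them at an unadjusted p under 0.05, where 51.3% of all genes were lower and 9.29% were lower at that p.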

How the data were processed

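Total RNA of 30 abdominal aorta libraries was depleted of ribosomal RNA before library construction with an unstranded NEBNext kit, per the labels' protocols. Antisense and overlapping genes and close paralogs are therefore uncertain. The authors deposited FPKM values per transcript for annotated and assembled transcripts. The genome build mm10 and the tool limma are named in the submitters' processing notes, with no version, and which programs aligned, assembled and quantified the reads is not given in the sources used here. Low values are whole multiples of 1 read to within 0.1 read for 98.7% to 99.5% of them, which gives the depth.

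Of 33677 annotated transcripts 33638 matched GENCODE M21, and the 27797 listed in all files were summed to 14379 genes. The members had 76 transcripts in any list and 65 in all files, and 8 members had one outside the shared list. Genes at 1 FPKM or more in at least 5 libraries, 13223 in all, were tested on log2(FPKM + 1) with limma 3.58.1 in R 4.3.3, with a mean-variance trend and robust variances, all 6 groups in 1 fit with 24 residual degrees of freedom, and Benjamini-Hochberg adjustment over all genes of a comparison at a threshold of 0.05. The steps were tested on simulated data. Relations used permutation tests, two-sided, in Python 3.11.15 with scipy 1.17.1.

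All members are named with group means. Values per library are given for Hmgcs1, Sqle, Srebf2, Insig1, Fasn, Acly, Scd1, Scd2 and Srebf1 and for the member of each branch with the smallest p in a main comparison, and each other pathway list is given by its counts and its 2 smallest p in AngII against Control, except where a gene is not reported here. The members and lists were chosen with earlier results of these data known. Libraries are numbered within a group in the order of deposit, which pairs nothing. Alternatives changed the pseudocount, filter, scaling, unlisted transcripts, groups in the fit, library weights, marker terms and libraries left out.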

Additional observations from a re-analysis of the deposited data

Results flagged for a closer look

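Of 186 sets of 5 libraries, 1 for each gene and group or branch mean, 5 had a library far from the other 4 by a gap test that chance passes in about 1 of 20 sets. Msmo1 had 24.6 FPKM in AngII 1, where its group otherwise spanned 12.8 to 14.9 FPKM. Acaca had 0 FPKM in AngII+BAI 1, where its group otherwise spanned 33.7 to 129 FPKM. Scd1 had 2881 FPKM in Control 3, below the 4805 to 4981 FPKM of the remaining 4. Srebf1 stood at 51.0 FPKM in Control 4 and at 33.6 to 37.4 FPKM in the others. Elovl6 stood at 164 FPKM in AngII+VAL 1 and at 76.97 to 88.4 FPKM in the others.

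Outside the transcripts listed for all groups, 2 transcripts of members reached 50 FPKM or more. Acaca-202 stood at 97.2 FPKM in AngII+BAI 1 and was listed for AngII+BAI and AngII+VAL alone. Acly-201 stood at 92.8 FPKM in AngII+GAS 3 and was listed for AngII+GAS alone.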

How the results depend on the processing

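No paired analysis was possible because the labels give no replicate numbers shared between groups. Of 52 log2 differences of single genes, 44 kept their sign under every alternative run, and 15 values under an alternative came under an adjusted p of 0.05 by limma. The other 8 changed sign. In AngII against Control, Hmgcs1 was 0.18 with the Adipoq term, and with neuron and muscle terms Srebf2 was -0.076, Fasn 0.090 and Elovl7 -0.043. Against AngII, Sqle in AngII+ETH was 0.24 without AngII 1 and 5, Acaca in AngII+BAI was 0.19 with unlisted transcripts at 0 and 0.31 with library weights, and Scd1 in AngII+BAI was -0.11 after quantile normalization and -0.0021 with neuron and muscle terms. Leaving out 1 library gave -0.20 to 0.14 for Hmgcs1 and -0.39 to 0.056 for Fasn in AngII against Control, -1.92 to 0.13 for Acaca in AngII+BAI and -0.65 to 0.17 for Hmgcs1 in AngII+GAS. Over all members in the main comparisons 268 of 6080 differences changed sign, and 0 of 1132 for members with an unadjusted p under 0.05. Depth bears on the lowest values, which were 0 in single libraries of Dhcr7 and Acaca and 0.164 FPKM for Hsd17b7, where 3 reads in 2 kb were worth up to 0.0215 FPKM.

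Members called were 1 (Cyp51) with library weights in AngII against Control and 2 (Cyp51 and Mvd) in AngII+GAS against AngII. In AngII+BAI against AngII they were 1 with no filter, quantile normalization, the Adipoq term or without AngII+BAI 3 and 5, and 2 with median-of-ratios scaling. Without AngII 1 and 5 the sterol medians against AngII were 0.12 in AngII+ETH, -0.0184 in AngII+BAI and -0.19 in AngII+GAS, and quantile normalization gave -0.21 in AngII+GAS. The medians of all genes in these settings were -0.06, 0.02, -0.15 and 0.01. Without AngII 1 and 5 the sterol mean levels differed from AngII by 0.14 in AngII+ETH, -0.0452 in AngII+BAI, -0.16 in AngII+GAS and 0.13 in AngII+VAL.

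Genes called in AngII against Control were 4 with no filter, 64 with library weights and 18 without AngII+BAI 3 and 5. In AngII+BAI against AngII they were 16 with the 5 FPKM filter, 70 with median-of-ratios scaling, 74 with unlisted transcripts at 0, 78 with the Adipoq term, 102 without AngII+BAI 3 and 5, and 0 with only the compared groups, library weights, neuron and muscle terms or without AngII 1 and 5. In AngII+GAS against AngII they were 1 with a pseudocount of 0.1 or the 5 FPKM filter, 8 with unlisted transcripts at 0, 232 with library weights, and 0 with quantile or median-of-ratios scaling, only the compared groups, neuron and muscle terms or without AngII 1 and 5. In AngII+VAL against AngII they were 18 with unlisted transcripts at 0, 19 with only the compared groups and 1 without AngII 1 and 5.

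Against Control, genes called in AngII+ETH were 9 with unlisted transcripts at 0, 3 with only the compared groups, 8 with library weights and 1 without AngII+BAI 3 and 5. In AngII+BAI they were 329, 5, 25 and 33 under the same settings, 44 with the Adipoq term, 48 with neuron and muscle terms and 67 without AngII 1 and 5. In AngII+GAS they were 5, 3, 8 and 2 under those first settings, and 0 with median-of-ratios scaling, neuron and muscle terms or without AngII 1 and 5. In AngII+VAL they were 21, 3, 24 and 2 under those first settings and 6 with quantile normalization. In the 5 infused groups together they were 10 with unlisted transcripts at 0 and 23 with library weights.

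Leaving out 1 library at a time gave 0 to 41 genes called in AngII against Control, 0 to 1 in AngII+ETH, 0 to 184 in AngII+BAI, 0 to 61 in AngII+GAS and 0 to 1 in AngII+VAL against AngII, with 0 to 2 members called in AngII+BAI. Against Control it gave 0 to 1 in AngII+ETH, 8 to 954 in AngII+BAI, 0 to 1 in AngII+GAS, 0 to 2 in AngII+VAL and 0 to 9 in the infused groups together. The causes were not tested.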
